A study of Mus musculus with 14 samples.

Results

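The 9 genes described here encode tumour cell ligands that T cells, natural killer (NK) cells and phagocytes read: Cd274, Pdcd1lg2, Cd276, Tnfsf18, Tnfsf9, Cd47, Pvr, Ceacam1 and Raet1e. They were taken by gene symbol from a table of 32926 symbols, all 9 were found, and 7 reached a mean of at least 5 CPM, counts scaled to a common library size, in some group. RNA sequencing covered 14 libraries of cultured mouse small cell lung cancer cells, with 6730816 to 10659524 counts over genes per library, and the series asks how the coactivator YAP bears on the heterogeneity of this tumour.

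The groups were Non-NE (non-neuroendocrine) cells and NE (neuroendocrine) cells with 3 libraries each, and NE cells with YAP5SA at days 0, 3, 7 and 21 with 2 libraries each. YAP5SA is a form of YAP that the Hippo kinases cannot switch off, here under a tetracycline-responsive promoter (Tet-onYAP5SA) with the transactivator Rosa26rtTA. All cells came from lung tumours of mixed-strain adult mice that carried CGRPCreER/+, together with floxed alleles written Rbf/f, P53f/f and Ptenf/f, so these alleles are shared by every group. The mice had received an injection of TM, the labels giving the time as 2 months, and the cells were grown in Hites medium. Cre was driven from the calcitonin gene-related peptide locus of neuroendocrine cells, yet Calca, its gene, held 0 counts in 5 groups and 1 count over the day 21 libraries. The genotype field numbers the P53 allele otherwise in 6 libraries, while their source text reads P53. The source text of day 0 replicate 1 does not list the transgene, unlike that of the other 7 YAP5SA libraries. Whether the libraries of a group came from separate cultures or clones is not given, so p-values measure the spread between these libraries, which may be technical.

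Labels and depth were checked first. Of 32926 genes, 0 had a higher count in NE replicate 2 than in day 0 replicate 1, of whose total NE replicate 2 held 85.7%. Over 12673 genes its counts varied around that share 1.03 times as much as random sampling gives, so both count as 1 set of reads, which links the NE and day 0 groups. Yap1 stood at 206 ± 63.6 CPM in Non-NE and 13.0 ± 5.64 CPM in NE libraries (SD, n = 3 each), and at 7.50 ± 0.529, 1148 ± 120.1, 763 ± 41.8 and 213 ± 8.02 CPM at days 0, 3, 7 and 21 (SD, n = 2 each). Of 8 tested neuroendocrine markers 7 were lower in Non-NE than in NE, Ncam1 being higher, and of 7 non-neuroendocrine markers 6 were higher and 0 lower. At day 21 against day 0, the neuroendocrine list had 7 lower and 1 higher, the non-neuroendocrine list 7 higher of 7. Over all genes tested, 20.0% were higher and 22.8% lower in Non-NE than NE. At day 21 against day 0 these shares were 37.7% and 34.0%. The leukocyte gene Ptprc had 4 counts over the Non-NE libraries, 1 over the NE libraries and 0 in YAP5SA libraries, while the macrophage receptor gene Csf1r and the antigen presentation gene Cd74 were higher at day 21 than day 0, with values given below.

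Checkpoint ligands sit on a cell and bind receptors that restrain or stimulate immune cells. PD-L1 (Cd274) and PD-L2 (Pdcd1lg2) bind PD-1 and dampen T cells, and B7-H3 (Cd276) is a related B7 protein. GITR ligand (Tnfsf18) and CD137 ligand (Tnfsf9) are costimulatory members of the tumour necrosis factor family. CD47 signals phagocytes through SIRP alpha not to engulf the cell. CD155 (Pvr) binds the inhibitory receptor TIGIT and the activating receptor CD226, CEACAM1 binds itself and other CEACAMs across cells, and RAE-1 epsilon (Raet1e) binds the NK cell receptor NKG2D. Neuroendocrine small cell lung cancer is known for low MHC class I and poor visibility to T cells.

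The promoters of 4 of these genes are shown because they bracket the data. Cd274 and Tnfsf18 had their highest levels at day 21, Pdcd1lg2 lies next to Cd274 but was nearly silent, and Cd276 was expressed in every library. Each window runs from 250 bases before to 50 after a RefSeq transcript start (GRCm38.p6, the assembly mm10 is based on), 5′ to 3′ on the gene's strand. Capitals mark matches to the TEAD motif GGAATG on either strand.
Cd274: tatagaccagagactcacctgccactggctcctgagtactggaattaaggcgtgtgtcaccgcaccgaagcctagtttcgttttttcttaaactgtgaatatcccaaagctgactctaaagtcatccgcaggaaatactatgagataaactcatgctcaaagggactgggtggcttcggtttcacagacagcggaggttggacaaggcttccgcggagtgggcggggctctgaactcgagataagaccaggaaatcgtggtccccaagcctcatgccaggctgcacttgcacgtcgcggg
Pdcd1lg2: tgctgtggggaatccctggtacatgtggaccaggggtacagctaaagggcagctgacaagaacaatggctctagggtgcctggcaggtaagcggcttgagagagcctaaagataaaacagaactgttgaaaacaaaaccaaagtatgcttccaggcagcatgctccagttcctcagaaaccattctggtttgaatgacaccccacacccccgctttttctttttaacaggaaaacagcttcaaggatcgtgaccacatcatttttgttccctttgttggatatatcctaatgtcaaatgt
Tnfsf18: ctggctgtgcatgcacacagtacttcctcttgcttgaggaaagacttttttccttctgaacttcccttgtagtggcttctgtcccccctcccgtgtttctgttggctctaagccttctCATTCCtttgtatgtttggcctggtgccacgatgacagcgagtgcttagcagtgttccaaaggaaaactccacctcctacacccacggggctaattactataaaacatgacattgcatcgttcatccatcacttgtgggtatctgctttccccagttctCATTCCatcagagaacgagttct
Cd276: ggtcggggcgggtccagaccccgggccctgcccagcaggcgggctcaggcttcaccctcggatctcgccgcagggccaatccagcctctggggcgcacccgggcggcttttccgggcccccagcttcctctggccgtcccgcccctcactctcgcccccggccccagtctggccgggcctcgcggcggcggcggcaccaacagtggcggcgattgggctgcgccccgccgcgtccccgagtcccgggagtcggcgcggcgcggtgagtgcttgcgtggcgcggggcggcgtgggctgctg

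These windows are chr19:29367188-29367487 (plus strand), chr19:29410669-29410968 (plus), chr1:161494407-161494706 (plus) and chr9:58554984-58555283 (minus). Promoter entries were matched for 7 of the 9 genes, Tnfsf9 and Pvr being the others. Both strands were searched for the TEAD motif and for the motifs of AP-1 (TGANTCA) and IRF factors, which are found in 14.7%, 7.81% and 3.44% of all 32851 promoter windows. Tnfsf18 held 2 TEAD matches, 132 bases before its start and at base 28 of the transcript, and 1 of the 2 windows of Raet1e held 1. The windows of Cd274, Pdcd1lg2, Cd276, Cd47 and Ceacam1 held none of these 3 motifs. The Cd276 window was rich in CpG (39 CpG, 78.3% G or C), as was the first Cd47 window (35 CpG), against a median of 7 CpG and 52.7% over all windows. Cd274 had 15, Tnfsf18 6, and Ceacam1 and Pdcd1lg2 3 each.

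Cd274, the gene for PD-L1, was lowest in Non-NE cells and highest at day 21 of YAP5SA. It had 1.65, 2.81 and 2.44 CPM in the Non-NE libraries, against 4.25, 8.31 and 2.98 CPM in the NE libraries. The groups did not overlap, but the difference did not pass edgeR's quasi-likelihood test after adjustment over all genes (log2 change -1.20, SE 0.53, adjusted p = 0.111). With all 14 libraries in the fit it did (adjusted p = 0.0152). That fit treats NE replicate 2 and day 0 replicate 1, which share reads, as separate libraries. Its biological coefficient of variation was 0.293, between 0.0548 for the days and 0.399 for NE and Non-NE. Without NE replicate 2 the change was smaller and not called, with values given below. The YAP5SA libraries held 7.97 and 6.11 CPM at day 0, 21.3 and 26.7 at day 3, 27.1 and 26.4 at day 7, and 118 and 119 at day 21. Levels overlapped at days 3 and 7 (1.13-fold, adjusted p = 0.213), but without day 3 replicate 2 day 7 was called higher (log2 change 0.35, adjusted p = 0.0418). Day 21 was 17.1-fold above day 0 (log2 change 4.09, SE 0.13, adjusted p = 1.01e-19) and 4.44-fold above day 7 (adjusted p = 1.09e-14). Day 21 was also 50.5-fold above Non-NE (log2 change 5.66, SE 0.38, adjusted p = 5.98e-07). For that contrast, here and below, the cell lines and the YAP5SA course cannot be told apart. GENCODE M21 places 511 exonic bases of an antisense transcript over Cd274, and without a stated strand setting their reads cannot be told apart.

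Pdcd1lg2, for PD-L2, starts 22.8 kb downstream of Cd274 on chromosome 19 and did not follow it. It had 1 count over the day 21 libraries, 1 each at days 3 and 7, 0 at day 0, 1 over the Non-NE libraries and 0 over the NE libraries. It was too low to be tested, and the 3 counts that a count of 0 allows over a group correspond to 0.104 to 0.152 CPM. These limits cover counting error only.

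**Figure D1:**
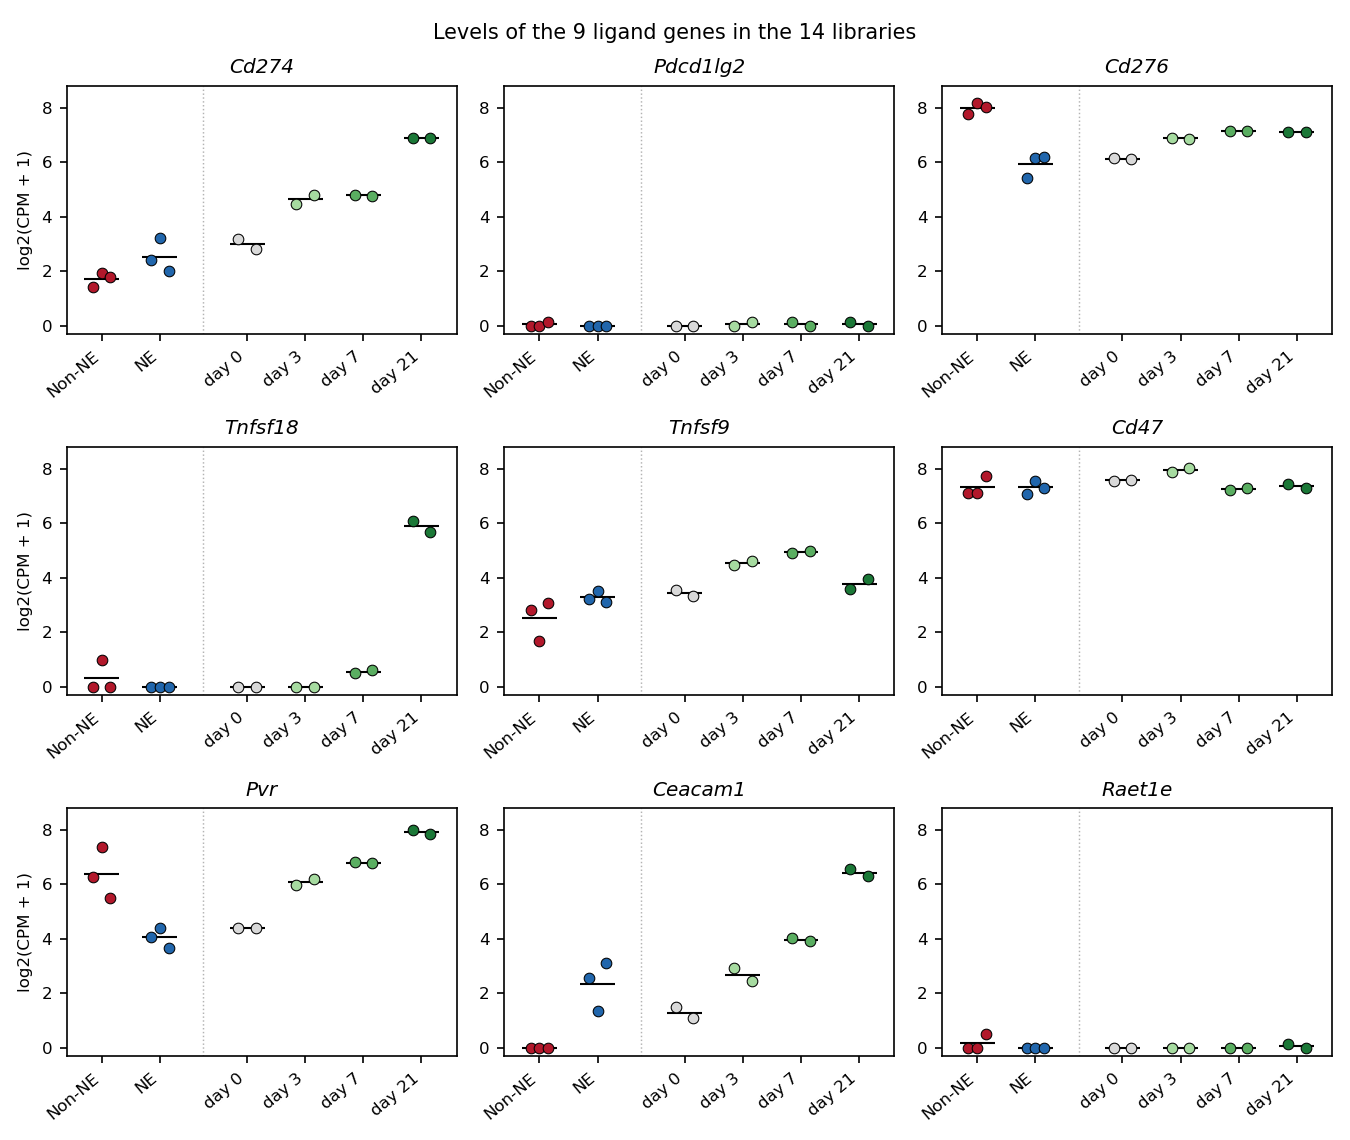
Levels of the 9 ligand genes as log2(CPM + 1) in each of the 14 libraries (points) with group means (lines), Non-NE and NE left of the dotted line and YAP5SA days right of it. Cd274, Tnfsf18, Pvr and Ceacam1 are highest at day 21, Cd276 in Non-NE, Tnfsf9 at day 7 and Cd47 at day 3, while Pdcd1lg2 and Raet1e stay near 0.

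Cd276, for B7-H3, had its highest level in Non-NE cells. Its levels were 216, 291 and 258 CPM in the Non-NE libraries and 42.0, 70.4 and 72.5 CPM in the NE libraries, with a wide gap between the groups. The change was 4.02-fold (log2 change 2.01, SE 0.27, adjusted p = 0.00137). In YAP5SA cells it held 69.8 and 67.8 CPM at day 0, 117 and 115.6 at day 3, 142 and 140.3 at day 7, and 136 and 138 at day 21. It rose 1.68-fold by day 3 (adjusted p = 6.68e-09) and 2.07-fold by day 7 (adjusted p = 3.06e-12) and then levelled, day 21 differing from day 7 by -0.03 (log2, adjusted p = 0.717). Day 21 stayed 1.86-fold below Non-NE (adjusted p = 0.00470). Cd274 and Cd276 thus differed in opposite directions between day 21 and Non-NE cells.

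Tnfsf18, for GITR ligand, was seen almost only at day 21. The day 21 libraries had 66.3 and 50.8 CPM, against 0.407 and 0.508 CPM at day 7 and 0 in all day 3, day 0 and NE libraries. Among Non-NE libraries only replicate 2 had counts, at 0.977 CPM. At day 21 it was at least 419-fold above day 0, whose level is set at its limit of 3 counts (adjusted p = 9.56e-18), and 126-fold above day 7 (adjusted p = 4.67e-16). The 9 counts at day 7 put it at least 3.27-fold above day 0 (adjusted p = 0.00464), not called with all 14 libraries in the fit (0.139). Tnfsf18 was tested between these days only because its day 21 counts passed the filter. Against Non-NE day 21 was 168-fold higher (adjusted p = 0.000887), a ratio that rests on Non-NE replicate 2 and that the DESeq2 test did not call (adjusted p = 0.0949). Of 11 receptors of the 9 ligands 2 were higher and 1 lower at day 21 than day 0 (4 tested). In Non-NE 3 were higher and 1 lower than in NE (4 tested). The shares over all genes tested were 37.7% and 34.0% at day 21, and 20.0% and 22.8% in Non-NE. Tnfrsf18, the GITR gene, averaged 2.11 ± 0.0250 CPM at day 21 and 3.86 ± 0.558 CPM at day 0.

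Tnfsf9, for CD137 ligand, had its highest mean at day 7 and a lower one at day 21. Its levels were 10.8 and 8.98 CPM at day 0, 20.9 and 23.6 at day 3, 28.9 and 30.2 at day 7, and 11.1 and 14.5 at day 21. It was 3.01-fold higher at day 7 than day 0 (log2 change 1.59, SE 0.14, adjusted p = 2.28e-10). Day 7 was 1.35-fold above day 3 (adjusted p = 0.00511), a call lost with library totals (0.0525), without day 3 replicate 1 (0.0601) or day 7 replicate 2 (0.0510) and with all 14 libraries in the fit (0.619). From day 7 to day 21, the interval in which Tnfsf18 and Cd274 rose, it fell 2.29-fold (adjusted p = 7.80e-08), which was not called with all 14 libraries (0.159). Its residual rise over day 0 at day 21, 1.32-fold, was at the edge of the test (adjusted p = 0.0275) and was lost with library totals, with DESeq2 and without day 0 replicate 2 or day 21 replicate 2 (0.231 and 0.358). Non-NE libraries held 6.12, 2.20 and 7.32 CPM and NE libraries 8.30, 10.5 and 7.57 CPM. These groups lay apart by a narrow gap and the difference did not pass the test (log2 change -0.79, SE 0.52, adjusted p = 0.256). Day 21 was 2.46-fold above Non-NE (adjusted p = 0.0147), not called without day 21 replicate 2. With only the Non-NE and day 21 libraries in the fit it was not called either (adjusted p = 0.120). A noncoding gene on the other strand, Gm11110, shares 192 exonic bases with Tnfsf9.

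Pvr, for CD155, was higher both in Non-NE cells and along the YAP5SA course. It had 75.2, 165 and 43.6 CPM in the Non-NE libraries, against 15.8, 20.1 and 11.7 CPM in the NE libraries. Non-NE libraries differed widely among themselves but all lay above NE (5.75-fold, log2 change 2.52, SE 0.52, adjusted p = 0.00790). In YAP5SA cells it held 19.8 and 20.1 CPM at day 0, 62.4 and 71.6 at day 3, 111 and 108 at day 7, and 252 and 229 at day 21. Each interval showed a rise in the fit of the 8 YAP5SA libraries, 3.34-fold to day 3 (adjusted p = 2.25e-13), 1.66-fold from day 3 to day 7 (adjusted p = 6.10e-08) and 2.21-fold from day 7 to day 21 (adjusted p = 1.00e-11). None of the 3 was called with all 14 libraries in the fit (adjusted p = 0.0527, 0.410 and 0.234). Day 21 was 12.2-fold above day 0 (log2 change 3.61, SE 0.09, adjusted p = 4.08e-21). Its 2.54-fold excess over Non-NE (adjusted p = 0.0174) was not called without day 21 replicate 1 or 2. With only the Non-NE and day 21 libraries in the fit it was not called either (adjusted p = 0.0975).

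Ceacam1, an adhesion receptor of epithelial cells, showed the largest contrast between the Non-NE and YAP5SA day 21 cells among the 9 genes. It had 0 counts in all 3 Non-NE libraries, against 4.83, 1.53 and 7.67 CPM in the NE libraries. With the Non-NE level set at 3 counts over the group it was at least 37.1-fold lower in Non-NE (adjusted p = 0.00694). In YAP5SA cells it held 1.78 and 1.11 CPM at day 0, 6.61 and 4.41 at day 3, 15.2 and 13.9 at day 7, and 93.6 and 77.1 at day 21. Day 21 was 59.6-fold above day 0 (log2 change 5.90, SE 0.19, adjusted p = 2.56e-19) and at least 674-fold above Non-NE (adjusted p = 9.05e-06). Ceacam1 has near-identical relatives in the mouse, among which Ceacam2 averaged at most 0.792 CPM in any group, 0 of 9 other CEACAM genes having enough counts to be tested, and reads shared between such genes may be lost or split.

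Cd47, the phagocyte signal, moved least of the 7 tested genes between day 21 and day 0. Its levels were 137, 137 and 209.9 CPM in the Non-NE libraries and 132, 189 and 158 CPM in the NE libraries, which overlapped (log2 change -0.03, SE 0.25, adjusted p = 0.945). In YAP5SA cells it held 188 and 190.3 CPM at day 0, 238 and 260.4 at day 3, 147 and 156 at day 7, and 173 and 157 at day 21. It was 1.31-fold higher at day 3 than day 0 (adjusted p = 0.000134) and fell 1.62-fold from day 3 to day 7 (adjusted p = 2.59e-08). At day 21 it was 1.13-fold lower than day 0 (adjusted p = 0.0417), a call lost with DESeq2 size factors (0.0551), with the DESeq2 test (0.0846), without day 0 replicate 1 or 2 (0.113 and 0.148), without day 7 replicate 1 or 2 (0.0591 and 0.0587) and without day 21 replicate 2 (0.201).

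Raet1e, for an NKG2D ligand, had 4 counts in Non-NE replicate 3, 1 count in day 21 replicate 1 and 0 in the other 12 libraries. It was not tested. In GENCODE M21 it shares 363 exonic bases with Raet1d and 133 with H60b, so reads from this cluster on chromosome 10 cannot be assigned with certainty.

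**Figure D2:**
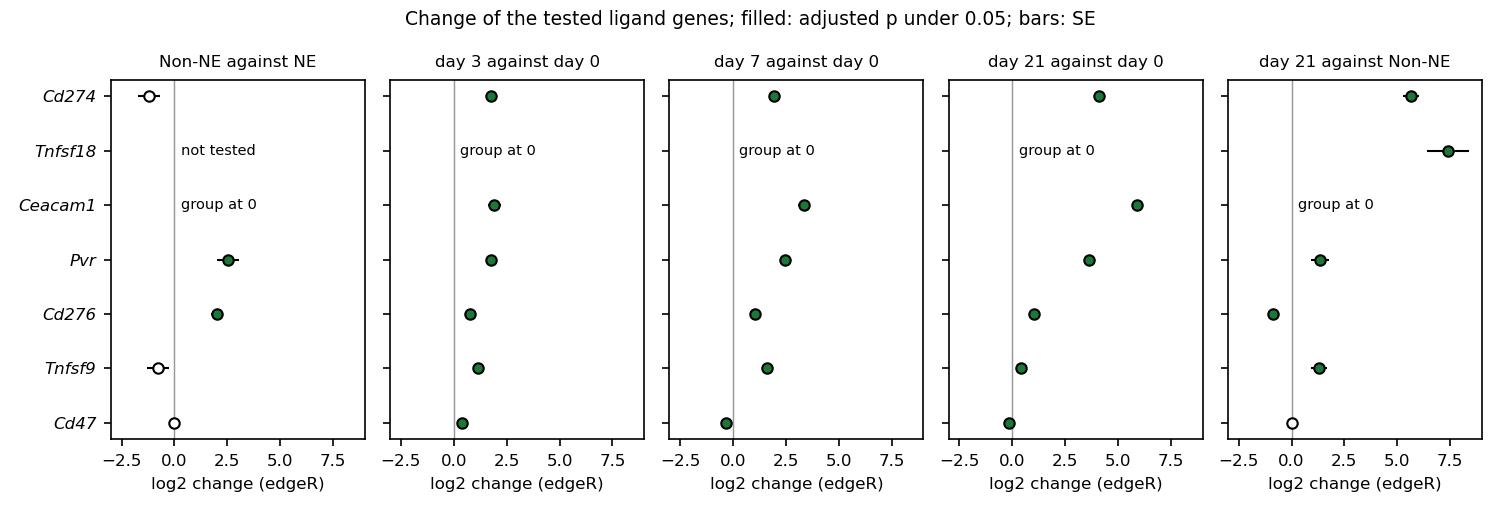
Log2 change (edgeR, horizontal axis) with its SE for 7 ligand genes in 5 comparisons, filled where the adjusted p is under 0.05. Where a group had 0 counts no value is drawn, and Tnfsf18 was not tested between Non-NE and NE. Cd274 lies at -1.20 in Non-NE against NE and at 4.09 in day 21 against day 0, whereas Pvr and Cd276 are positive in both.

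Counted together, 2 of the 9 genes were called higher in Non-NE than NE (Cd276 and Pvr) and 1 lower (Ceacam1), with 6 tested, against 20.0% and 22.8% of all genes tested in that comparison. Scaled by library totals alone the shares of all genes were 14.9% higher and 29.0% lower. At day 3 against day 0, 6 were higher and 0 lower of 7 tested, against 26.2% and 22.4% of all genes. At day 7, 6 were higher and 1 lower, against 37.2% and 33.8% (29.6% and 43.7% by library totals). At day 21, 6 were higher and 1 lower, against 37.7% and 34.0% (31.9% and 41.1% by library totals, where 5 were higher and 1 lower). The median log2 change of the tested genes was 1.16, 1.94 and 3.61 at days 3, 7 and 21, beside 0.01, 0.03 and 0.02 over all genes tested. In Non-NE against NE, Ceacam1 had 0 counts in Non-NE, passed the count filter only through NE and could only be called lower. Tnfsf18 passed the count filter only through its rise at day 21. With 0 counts at days 0 and 3 it could not be called at day 3, and its change of 0 is part of that median. The 2 genes that failed the filter stayed at or near 0.

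Between day 7 and day 3, 5 of the 9 genes were higher and 1 lower, against 29.5% and 26.1% of all genes (22.4% and 36.3% by library totals). Between day 21 and day 7, 4 were higher (Cd274, Tnfsf18, Pvr, Ceacam1) and 1 lower (Tnfsf9), against 26.1% and 24.2%. Between day 21 and Non-NE, 5 were higher and 1 lower (Cd276), against 29.7% and 23.3%. With only the 5 Non-NE and day 21 libraries in the fit 3 were higher and 1 lower, beside 3330 and 2442 of 13959 genes. Pvr and Tnfsf9 were no longer called there. Without NE replicate 2, which shares reads with day 0 replicate 1, Cd276 (log2 change 2.14, adjusted p = 0.00559), Pvr (2.76, adjusted p = 0.0220) and Ceacam1 (adjusted p = 0.00931) were still called in Non-NE against NE, and the log2 change of Cd274 was -0.66 (adjusted p = 0.378). Without day 0 replicate 1 the log2 changes at day 21 against day 0 were 4.29 for Cd274, 3.60 for Pvr and 6.27 for Ceacam1, all called, and the call for Cd47 was lost. The day comparisons rest on a biological coefficient of variation of 0.0548, against 0.399 among NE and Non-NE libraries. With all 14 libraries sharing 1 estimate of the spread, fewer were called. At day 3 against day 0, 1 was higher (Cd274), beside 5.34% of all genes in that fit, and between day 7 and day 3 it was 0, beside 5.33%. At days 7 and 21 against day 0, 5 each were higher, beside 17.8% and 18.4%, and Cd47 was called in neither. Between day 21 and day 7, 3 were higher (Cd274, Tnfsf18 and Ceacam1), beside 1.85%. The comparisons with day 0 share its libraries.

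Levels of different genes can be set side by side per exon length. In Non-NE cells Cd276 led at 69.7 ± 10.3 CPM per kb of exon, followed by Cd47 at 25.7 ± 6.68 and Pvr at 15.4 ± 10.3 (SD, n = 3), with Cd274 at 0.635 ± 0.163. In NE cells Cd47 led at 25.4 ± 4.49, followed by Cd276 at 16.8 ± 4.66 and Tnfsf9 at 6.81 ± 1.18 CPM per kb. Day 0 had the same first 3 genes in the same order. At day 21 Pvr was at 39.3 ± 2.76, Cd276 at 37.5 ± 0.332, Cd274 at 32.7 ± 0.237, Tnfsf18 at 28.3 ± 5.32 and Cd47 at 26.3 ± 1.72 CPM per kb (SD, n = 2). These 5 lay within a narrow range at day 21, where Cd274 and Tnfsf18 had been at 1.94 and 0 CPM per kb at day 0. Exon lengths are the union of GENCODE M21 exons, so a gene that uses a short isoform is understated.

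**Figure D3:**
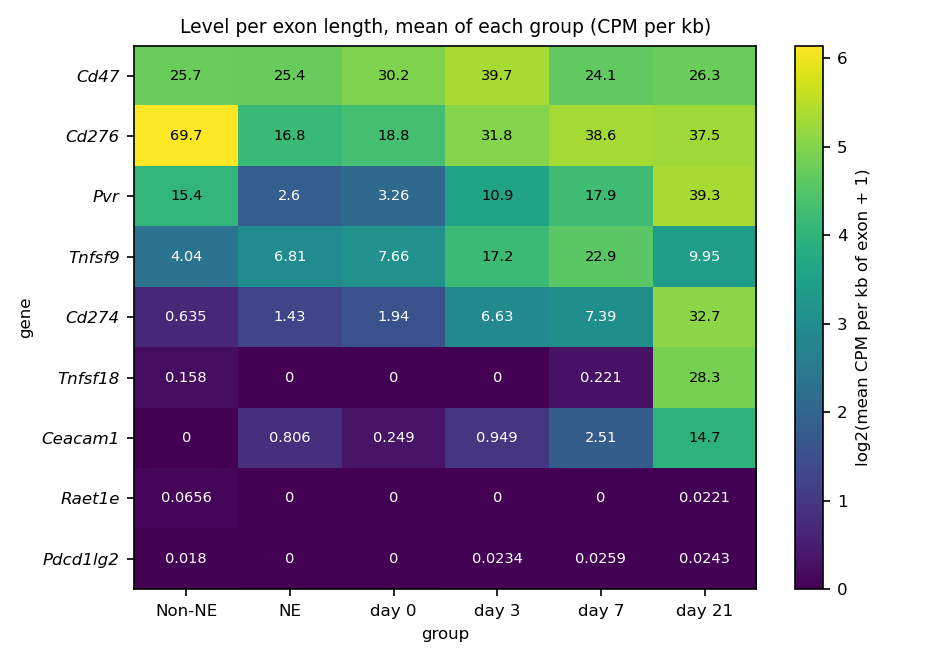
Mean level of each gene (rows) in each group (columns) in CPM per kb of exon, printed in each cell and coloured as log2(value + 1). Cd276 is the brightest cell of the Non-NE column at 69.7, and at day 21 Pvr, Cd276, Cd274, Tnfsf18 and Cd47 lie between 26.3 and 39.3.

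The order of the groups differed from gene to gene. Cd274, Ceacam1, Pvr and Tnfsf18 were highest at day 21, when Yap1 had come down to 213 CPM, and not at day 3, when it stood at 1148 CPM. Neighbouring groups overlapped at days 7 and 3 and at day 0 and NE for Cd274, and at day 7, Non-NE and day 3 for Pvr. For Ceacam1 day 3, NE and day 0 overlapped in turn. For Cd47 the libraries of day 21, Non-NE, NE and day 7 overlapped in turn, and the means of these groups lay below those of day 3 and day 0. Non-NE replicate 3 lay above both day 0 libraries and NE replicate 2 above day 0 replicate 1. For Cd274, Ceacam1 and Cd47, NE met day 0 only through NE replicate 2. That library holds part of the reads of day 0 replicate 1, so these overlaps cannot inform on the order of NE and day 0.

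By the mean absolute difference of log2(CPM + 1), each gene centred on its own mean over the 14 libraries, 13671 genes were compared with each ligand gene. Nearest to Cd274 were Gpr160 (0.41), the kinase gene Pim1 (0.44) and 1600029D21Rik (0.46). Ceacam1 was nearest to Nectin4 (listed as Pvrl4, 0.38), Cdh3, which encodes P-cadherin (0.55), and Atp6v1c2 (0.63). Tnfsf18 was nearest to Gpm6a (0.40), the glucose transporter gene Slc2a3 (0.40) and the club cell gene Scgb1a1 (0.44). Pvr was nearest to Rab20 (0.33), Gadd45a (0.38) and the laminin gene Lamc1 (0.38), and Cd276 to the collagen-modifying Plod1 (0.15), Tmem109 (0.16) and Maml1 (0.17). Tnfsf9 was nearest to 2310047M10Rik (0.20), Bcl2l2 (0.24) and 4732487G21Rik (0.24), and Cd47 to Rnf145 (0.12), Coprs (0.13) and Acsl4 (0.13). Among the ligand genes themselves Tnfsf9 and Cd47 (0.61), Cd276 and Cd47 (0.75) and Cd274 and Ceacam1 (0.77) were nearest. A gene that varies little has small differences by construction, and the libraries share their sets and, in 1 pair, reads.

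A list of 16 other ligands held B7 family and nectin genes, together with others such as Lgals9, Tnfrsf14, Fgl1 and H2-T23. Of its 15 genes in the table, 1 was higher (Lgals9) and 5 were lower in Non-NE than NE (9 tested, median log2 change -2.14). At day 21, 8 were higher, among them Lgals9 and Fgl1, and 3 lower than at day 0 (14 tested, median log2 change 1.38). Of all genes tested 20.0% were higher and 22.8% lower in Non-NE, and 37.7% and 34.0% at day 21. Lgals9, for galectin-9, a ligand reported for TIM-3, rose to 148 ± 18.9 CPM at day 21, against 1.03 ± 0.273 CPM at day 0 (145-fold, adjusted p = 6.98e-22). It was also higher in Non-NE, at 91.5 ± 93.1 CPM, than in NE, at 1.75 ± 0.456 CPM (adjusted p = 0.00280), with a spread in Non-NE as large as its mean. The adhesion gene Nectin3 (listed as Pvrl3) reached 205 ± 12.2 CPM at day 21, against 10.2 ± 0.619 CPM at day 0 (20.5-fold, adjusted p = 2.35e-21). Nectin4 (Pvrl4) reached 54.3 ± 5.06 CPM, against 2.51 ± 0.767 CPM (21.8-fold, adjusted p = 5.90e-18).

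Nectin2 (Pvrl2), which like Pvr binds TIGIT and CD226, lies 153 kb from it on chromosome 7. It held 91.8 ± 7.47, 159 ± 6.34, 281 ± 9.20 and 410.1 ± 8.25 CPM at days 0, 3, 7 and 21, a rise of 3.09-fold by day 7 (adjusted p = 1.13e-15). In Non-NE cells, where Pvr was higher, Nectin2 was at 10.7 ± 4.85 CPM, against 72.3 ± 17.7 CPM in NE (log2 change -2.81, adjusted p = 0.00217). Day 21 lay 38.8-fold above Non-NE (adjusted p = 5.24e-07). The costimulatory genes Cd80 and Cd86 averaged at most 1.37 CPM in any group. Icosl, for the ligand of ICOS, was 8.09-fold lower in Non-NE, at 1.27 ± 0.897 CPM, than in NE, at 10.0 ± 9.09 CPM (adjusted p = 0.0388). Its spread in NE was almost as large as its mean. NE replicate 2 shares reads with day 0 replicate 1, and day 0 stood at 18.6 ± 2.67 CPM.

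Of 16 other TNF superfamily ligands, 6 had enough counts in the YAP5SA fit. Of these 5 were higher and 1 lower (Eda) at day 21 than day 0, against 37.7% and 34.0% of all genes. Apart from Eda, no gene of this list had more than 17 counts over the day 0 libraries (Tnfsf10). The 5 thus passed the count filter through later days, so their number cannot be weighed against that share. In Non-NE against NE the shares of all genes were 20.0% and 22.8%. Tnfsf15, a ligand of the receptor DR3, held 27.0 ± 0.0478 CPM at day 21 and 8.03 ± 0.431 CPM at day 7, with 1 count at day 0. Eda, for ectodysplasin, stood at 0.244 ± 0.423 CPM in Non-NE libraries and 44.0 ± 7.96 CPM in NE libraries (170.0-fold lower, adjusted p = 0.00125) and was the 1 gene called of 2 tested there. Tnfsf4, Cd40lg, Cd70 and Tnfsf14, which serve T cell costimulation, had 0 counts in all 14 libraries.

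Among 7 other NKG2D ligands 4 were in the table, and 2 of 2 tested were higher at day 21 than day 0. The share of all genes called higher was 37.7% at day 21 and 20.0% in Non-NE against NE. H60c held 10.2 ± 1.92 CPM at day 21, with 2 counts at day 0, and Ulbp1 rose 1.39-fold (adjusted p = 0.00051). H60c passed the count filter only through days 7 and 21 (196 and 212 counts). Against day 0, Ulbp1 alone could thus be called in either direction. In Non-NE against NE 1 of 2 tested was higher and 0 lower, H60b having 3.57 ± 3.50 CPM in Non-NE and 0 counts in NE. H60b thus passed the filter through Non-NE only. Raet1d had counts in Non-NE libraries only, 8 in all, beside the 4 counts of Raet1e there.

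Of 10 phagocyte signals beside Cd47, 7 were higher and 1 lower at day 21 than day 0 (8 tested). In Non-NE 6 were higher and 0 lower than in NE (9 tested). Over all genes tested 37.7% were higher and 34.0% lower at day 21, and 20.0% and 22.8% in Non-NE. Thbs1, for thrombospondin, a ligand of CD47, was 33.0-fold higher at day 21 than day 0 (adjusted p = 6.49e-20) and 92.2-fold higher in Non-NE than NE (adjusted p = 0.000484). Sirpa, for the phagocyte receptor of CD47, stood at 46.3 ± 52.6 CPM in Non-NE and 0.733 ± 0.954 CPM in NE (adjusted p = 0.0124), the libraries of Non-NE differing widely. Cd24a, another signal against engulfment, was 2.26-fold lower at day 7 than day 3 (adjusted p = 4.27e-12). B2m, the light chain of MHC class I, was 40.4-fold higher at day 21 than day 0 (adjusted p = 8.80e-12) and 77.9-fold higher in Non-NE than NE (adjusted p = 0.00109). Cd47 thus stayed within a narrow range while Thbs1 and B2m changed.

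The 22 genes of the interferon gamma pathway and of PD-L1 regulation were more often higher than lower at day 21 and mixed in Non-NE. At day 21, 13 were higher and 2 lower than at day 0, with a median log2 change of 0.32, against 37.7% and 34.0% of all genes. In Non-NE 3 were higher and 2 lower than in NE (21 tested), against 20.0% and 22.8%. By day 21 the kinase gene Jak1 was 14.5-fold above day 0 (adjusted p = 1.65e-14) and Hif1a 3.40-fold (adjusted p = 2.44e-16). Myc was 3.20-fold above it (adjusted p = 2.51e-15) and Nfkb1 2.95-fold (adjusted p = 8.70e-13). NE libraries averaged 41.4 ± 35.3 CPM for Jak1, above 20.8 at day 21 and 1.44 at day 0. For Myc they averaged 378 ± 322 CPM, against 29.4, 175 and 92.7 at days 0, 7 and 21. Myc was 1.88-fold lower at day 21 than day 7 (adjusted p = 1.62e-10). For Hif1a and Nfkb1 NE stood at 169 ± 19.4 and 23.6 ± 6.17 CPM, below day 21 at 538 and 62.6. Irf1, an interferon-induced factor, was 1.87-fold lower at day 7 than day 3 (adjusted p = 1.29e-08). It was 1.60-fold higher at day 21 than day 7 (adjusted p = 2.40e-06). Irf1 averaged 66.8, 70.3, 37.0 and 59.0 CPM at days 0, 3, 7 and 21, so its mean at day 21 did not exceed day 0. Its part in the Cd274 levels was not tested. Cmtm6, whose product keeps PD-L1 at the cell surface, was 1.60-fold higher at day 3 than day 0 (adjusted p = 1.10e-05). In Non-NE cells, where Cd274 was low, Nfkb1 (5.42-fold, adjusted p = 0.000539), Rela (3.66-fold, adjusted p = 0.000226) and Ifngr1 (3.12-fold, adjusted p = 0.00386) were higher than in NE and Cmtm4 was 2.84-fold lower (adjusted p = 0.0140).

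**Figure D4:**
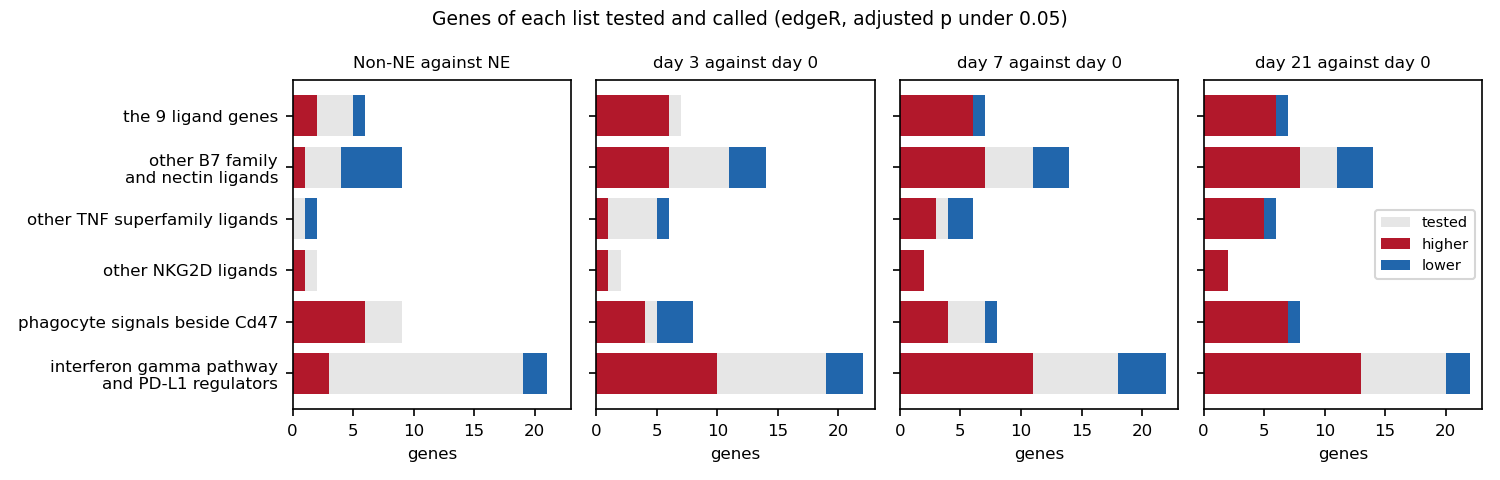
Genes of each list (rows) that were tested (grey), called higher (red) or called lower (blue) in 4 comparisons. The 9 ligand genes go from 2 higher and 1 lower in Non-NE against NE to 6 higher and 1 lower in day 21 against day 0. The shares of all genes tested go from 20.0% and 22.8% to 37.7% and 34.0%.

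Markers of other cells moved with some of these results. Of 23 immune cell markers 8 had 0 counts in both day 21 libraries, and the list summed to 166 to 190 CPM at day 21, against 7.50 to 8.25 CPM at day 0. Csf1r (115 ± 15.8 CPM at day 21) and Cd74 (48.6 ± 1.39 CPM) made up most of that sum, while Ptprc and Tyrobp were at 0 there. In Non-NE libraries the sum was 24.4 to 33.2 CPM, in NE libraries 8.42 to 43.1 CPM, with 10 of the 23 at 0 in each group. Among the 23, 4 were higher and 1 lower at day 21 than day 0 (5 tested). In Non-NE 1 was higher and 1 lower than in NE (3 tested). For these and the next markers the shares over all genes were 37.7% and 34.0% at day 21, and 20.0% and 22.8% in Non-NE. Of 15 fibroblast and endothelial markers 7 of 7 tested were higher in Non-NE than NE, and 6 of 7 at day 21 than day 0. They summed to 13640 to 23322 CPM in Non-NE, 3.96 to 8.86 CPM in NE and 67.5 to 76.1 CPM at day 21, with the endothelial gene Cdh5 at 0 counts in Non-NE. The part of these cells in the ligand levels of Non-NE and day 21 libraries was not tested. Fewer cells of a type and less RNA per cell cannot be told apart in such bulk libraries.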

How the data were processed

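mRNA purified with oligo(dT) beads was sequenced in 14 libraries, and the authors deposited 1 table of raw counts per gene symbol. The submitters' processing notes name mm10, STAR 2.4.2 and featureCounts, whose version, annotation and strand setting are not given in the sources used here. Of the gene names 0 were blank.

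Libraries were grouped by their labels. After TMM scaling and filterByExpr, genes were tested by quasi-likelihood F tests in edgeR 4.0.16 (R 4.3.3, robust fits), with Benjamini-Hochberg adjustment over all genes tested and calls at 0.05. The fit for Non-NE against NE held 6 libraries and 12966 genes, that for the days 8 libraries and 13996 genes, and that for day 21 against Non-NE all 14 libraries and 14829 genes. A gene with few counts in a group passes filterByExpr only through groups where it is high, which limits the direction of its call. CPM values use TMM factors set over all 14 libraries. With library totals in place of TMM the median log2 change of all genes became -0.28 (Non-NE against NE), -0.17 (day 7 against day 0), -0.12 (day 21 against day 0), -0.12 (day 7 against day 3) and 0.24 (day 21 against Non-NE), so changes are relative to TMM. For a fold against a group at 0, its pooled counts are set at 3. The procedure was tested on simulated data.

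The ligand genes and lists were chosen with earlier results of these data known. The 9 genes are always named. From other lists up to 4 called genes with the largest change and at least 5 CPM were eligible per comparison, and the text names some of them. Others (markers, Calca, genes at 0, Cd80, Cd86, Ceacam2, Tnfrsf18, H60b, Raet1d) were picked after values were seen. Of the listed symbols Ncr3lg1, Raet1a, Raet1b and Raet1c did not match. Alternatives were DESeq2 1.42.0 size factors and test, library totals, no count filter, at least 1 CPM, limma-voom (limma 3.58.1), the replicate number as a block, another set of libraries and leaving out each library.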

Additional observations from a re-analysis of the deposited data

How the results depend on the processing

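Over 48 changes of single ligand genes and their alternatives, 754 of 805 values kept their direction and side of the threshold, 39 lost a call, 4 gained 1 and 8 turned sign. All 8 were changes that did not pass the test. They were Cd47 in Non-NE against NE (-0.26 without Non-NE replicate 3 to 0.14 without NE replicate 2, with 0.10 and 0.09 without Non-NE replicates 1 and 2, and 0.017 with all 14 libraries), Cd47 in day 21 against Non-NE (-0.091 without Non-NE replicate 2 to 0.25 without Non-NE replicate 3, with -0.090 without Non-NE replicate 1 and -0.033 without day 21 replicate 1) and Cd276 in day 21 against day 7 (0.024 by library totals). With all 14 libraries in a fit 2 ligand genes were lower in Non-NE than NE, beside 31.0% of all genes in that fit. At day 3, 1 was higher (5.34% of all genes). At days 7 and 21 against day 0, 0 were lower (13.1% and 12.5%). From day 3 to day 7, 0 were higher and 0 lower (5.33% and 3.30%). From day 7 to day 21, 3 were higher and 0 lower (1.85% and 1.63%). The single lower gene at day 21 against day 0, Cd47, became 0 with DESeq2 size factors, with the DESeq2 test and with the replicate block (adjusted p = 0.0519). From day 3 to day 7 library totals gave 3 higher, beside 22.4% of all genes. Between day 21 and Non-NE the fit of 5 libraries gave 3 higher, beside 3330 of 13959 genes. The cause was not tested. Leaving out 1 library, counts ran from 5 to 6 higher and 0 to 1 lower at day 21 against day 0, 4 to 6 higher between days 3 and 7, 4 to 5 higher between days 7 and 21 and 3 to 5 higher between day 21 and Non-NE. They held at 2 higher and 1 lower in Non-NE against NE, 6 and 0 at day 3 and 6 and 1 at day 7.

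Replicate numbers did not pair the libraries, with correlations of same-numbered deviations from -0.01 to 0.05 between NE and Non-NE, where 4 of 6 libraries were nearest to their own number, and from -0.10 to 0.04 between days. Genes called higher in Non-NE against NE numbered 2243 with the block and 2594 without, and the other day comparisons kept their counts of ligand genes. Days 7 and 21 had the lowest correlation, and with day 21 numbers crossed, chosen after seeing the data, 4 ligand genes were higher and 1 lower, as without a block. A gene below 0.104 to 0.152 CPM over a group is not told from 0 at this depth, which holds for Pdcd1lg2 in all groups. Arms left with 1 library are assumed to vary like the others.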
